A study of Nasonia vitripennis with 2 samples.

Results

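In the methylome of adult female *Nasonia vitripennis*, a parasitoid wasp, 1012 methylated CpG sites (mCpGs) lay in sequence that is rich in CpGs and had at least 1 other mCpG nearby. They are called CpG-rich mCpGs here. An mCpG is a CpG with 10 or more reads (a covered CpG) at which more than 10% of the reads kept a C after bisulfite treatment. Density is the number of listed CpGs within 500 bp on either side of a site, the site itself included. A CpG-rich mCpG had a density of at least 58 and under 104 (CpG-rich density) and another mCpG within 1000 bp. This range is not unusual for the genome, as 8457930 of the 14024488 listed CpGs lay in it. These sites were 1012 of the 2160 mCpGs at that density and of 116929 mCpGs in all. The 1148 mCpGs of the same density without such a neighbor, the 17524 mCpGs at density 35 to 57 with one, and the 96396 mCpGs at density up to 34 served for comparison.

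DNA methyltransferases copy and establish methyl groups on the cytosines of CpG sites. In insects that methylate their DNA, the marks lie mostly in the bodies of transcribed genes rather than over repeats. A methylated cytosine turns into thymine by deamination more readily than an unmethylated one, so DNA that is methylated in the germ line tends to lose CpGs over time, and methylated sequence is usually poor in CpGs.

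Genomic DNA came from the whole bodies of 50 females of the standard strain AsymCX, pooled at 24 h of adult age, with unmethylated lambda phage DNA added as a conversion control. Whole-genome bisulfite sequencing (WGBS-seq) of this pool took 2 lanes of different Illumina sequencers, and the authors summed both lanes and both strands at each of 14024488 CpGs. No treatment and no other group was compared, and the cell types of the whole body cannot be told apart. With 1 pool there is no biological replicate, so values are descriptions without a test. Intervals in parentheses are 95% Wilson intervals for shares, Newcombe intervals for differences of shares and order-statistic intervals for medians. They cover counting error only, because amplified reads without molecular identifiers may repeat a molecule and 1 read counts at every CpG it spans. The table held 226856322 counts, the median CpG had 11 reads, and 7818889 CpGs were covered.

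CpG-rich mCpGs were rare. Of the 4715498 covered CpGs at CpG-rich density, 0.0458% were mCpGs and 0.0215% were CpG-rich mCpGs, against 9.72% mCpGs among the 991306 covered CpGs at density up to 34 and 1.50% of all covered CpGs. The share fell steadily within the range. At density 58 to 62, 512 CpG-rich mCpGs made up 0.136% of covered CpGs (0.124 to 0.148). At 63 to 67 there were 231 (0.0550%), at 68 to 77 there were 144 (0.0138%), at 78 to 87 there were 59 (0.00462%), and at 88 and above there were 66 (0.00412%, 0.00324 to 0.00524). The intervals of the last pair of classes overlap, whereas the other neighboring classes lie apart. At the lower limit, 148 sites had a density of 58 and a median methylation of 51.5%, and just outside 161 mCpGs with a neighbor had a density of 57 and a median of 52.9%. At the upper limit, 1 site had the highest density allowed, with 27.3% methylation, and 2 mCpGs with a neighbor had a density of 104 and a median of 13.8%. The nearest other mCpG was over 800 bp away for 28 sites, while 15 mCpGs of the same density had theirs over 1000 bp and up to 1200 bp away and were not included. The median methylation of both sets was 15.4%.

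**Figure D1:**
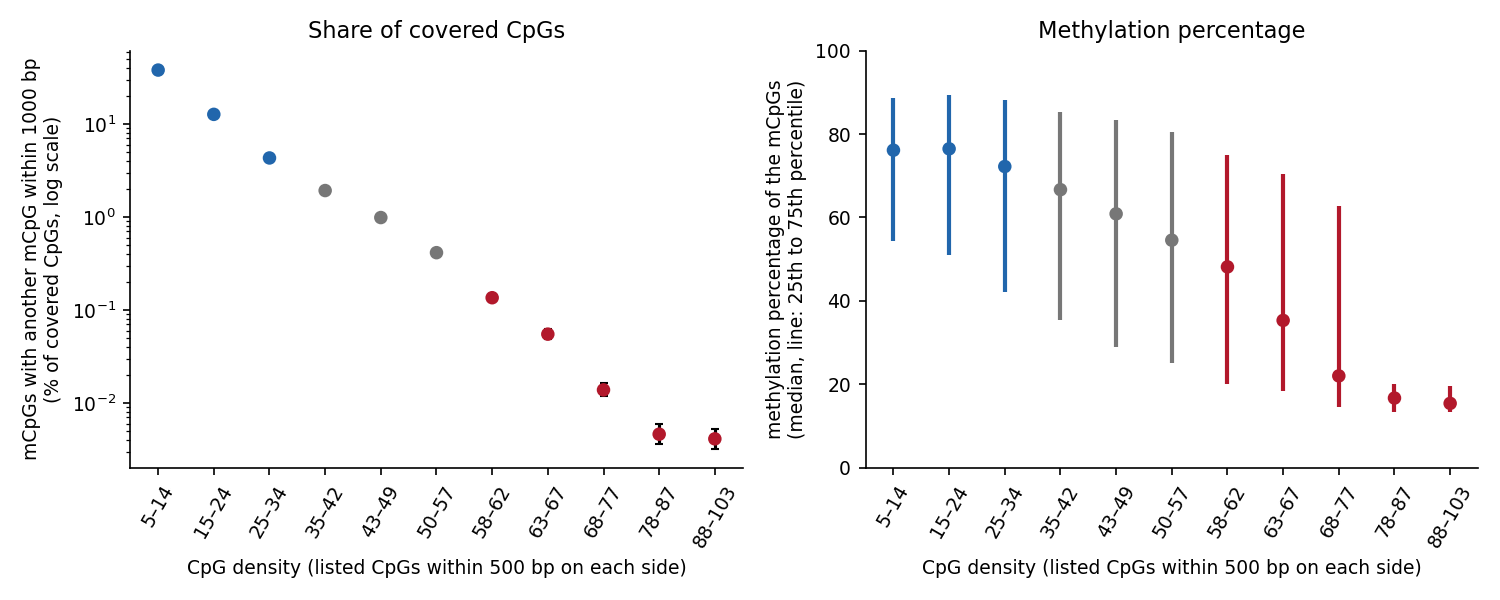
Left, mCpGs with another mCpG within 1000 bp as a percentage of covered CpGs (log scale, bars are 95% Wilson intervals) by density class. Right, the median methylation percentage of these mCpGs with the 25th to 75th percentile. Blue is density up to 34, gray 35 to 57, red the CpG-rich density. Both the share and the median are lower in the CpG-rich classes, down to a share of 0.00412% and a median of 15.4% in the densest class.

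The methylation percentages of the CpG-rich mCpGs covered the whole range and were concentrated at its lower end. Their median was 33.3% (29.2 to 36.8), and the middle of the distribution, from the 25th to the 75th percentile, ran from 16.7% to 70.5%. The median was 75% (75 to 75) for mCpGs at density up to 34 and 63.6% (62.5 to 64.3) for those at density 35 to 57 with a neighbor. The 1148 CpG-rich sites without a neighbor had a median of 14.3%, and 90.0% of them rested on exactly 2 methylated reads.

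At 210 CpG-rich mCpGs more than 75% of reads were methylated, or 20.8% (18.4 to 23.4), against 49.4% at density up to 34 (49.1 to 49.7). The difference was -28.6 percentage points (-31.1 to -26.0). Against density 35 to 57 with a neighbor (37.1%), it was -16.3 points (-18.8 to -13.6). The difference against density up to 34 was -45.1 points with a coverage minimum of 5 reads and -11.3 points with density counted within 1000 bp and both limits doubled. Methylation of up to 25% was found at 438 CpG-rich mCpGs, or 43.3% (40.3 to 46.4), against 11.1% at density up to 34. Every read was methylated at 30 sites (2.96%, 2.08 to 4.20), against 5.55%. In classes of 10 points, 382 sites lay above 10% and up to 20%, and between 62 and 105 sites fell into each of the other classes. There was a slight rise toward the top, from 62 sites above 50% and up to 60% to 87 sites in each of the classes above 80%. Sites above 75% thus existed in CpG-rich sequence, but did not dominate there as they did at density up to 34.

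**Figure D2:**
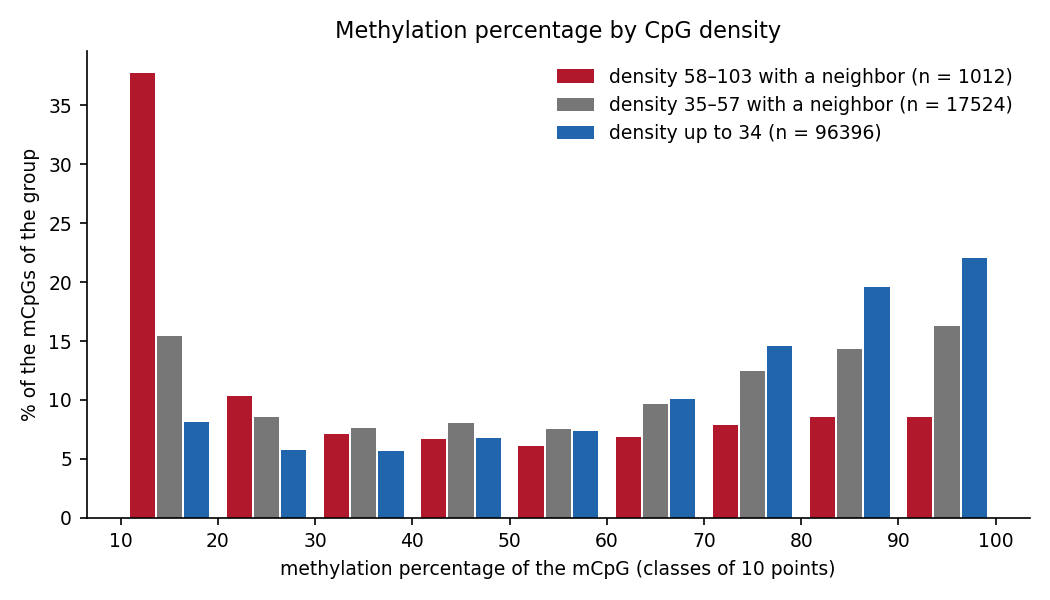
Percentage of the mCpGs of each group (vertical axis) by methylation percentage of the site in classes of 10 points (horizontal axis). Red, the 1012 CpG-rich mCpGs. Gray, 17524 at density 35 to 57 with a neighbor. Blue, 96396 at density up to 34. The class above 10% and up to 20% holds 37.7% of the red group and 8.11% of the blue, and the class above 90% holds 8.60% and 22.1%.

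Read depth differed between the groups, with a median of 17 reads (range 10 to 89) at CpG-rich mCpGs and 31 at mCpGs of density up to 34, while the median over all covered CpGs at CpG-rich density was 18. The difference in methylation was present in every class of depth. With 10 to 14 reads, 20.3% of 369 CpG-rich mCpGs lay above 75% against 58.8% at density up to 34. With 30 to 49 reads, the values were 24.2% of 120 and 47.6%, and with 50 or more reads they were 8.33% of 60 (3.61 to 18.1) and 39.9%. Exactly 2 methylated reads, the fewest that the definition allows, were found at 243 CpG-rich mCpGs (24.0%), against 1.45% at density up to 34. Of the 243, 144 had another mCpG within 75 bp, the length of a trimmed read, and 102 had there another mCpG with exactly 2 methylated reads. At least 5 methylated reads were found at 620 sites (61.3%). A methylated C and a C that escaped conversion cannot be told apart at such a site. In an alternative, mCpGs were called with a 1-sided binomial test against the lambda rate of unconverted Cs (Benjamini-Hochberg at 0.05) instead of the 10% criterion. With these calls, 954 sites met the same rule. How many of the 954 are also CpG-rich mCpGs by the 10% criterion was not counted. The error rate among covered CpGs at CpG-rich density alone was not estimated. The number 954 therefore does not show how many of the sites are methylated.

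Among the CpG-rich mCpGs, median methylation was lower at higher density. The median was 48.1% (41.4 to 53.3) at density 58 to 62, 35.3% (27.8 to 42.9) at 63 to 67, 22.0% (18.2 to 33.3) at 68 to 77, 16.7% (14.3 to 18.2) at 78 to 87 and 15.4% (13.3 to 16.7) at 88 and above. The share above 75% went from 126 of 512 (24.6%) in the first of these classes to 2 of 66 (3.03%) in the last. Intervals of adjacent classes touch or overlap, and those of the first and the last do not. Medians of 16.7% and 15.4% are also the values that 2 methylated reads, the fewest allowed, give at 12 and 13 reads. Read support was not separated by density class, and its part in this trend was not tested. The share of mCpGs that had a neighbor also changed, from 82.2% at density 58 to 62 to 15% at 88 and above. At the higher densities most mCpGs therefore stood alone and are not among the 1012.

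Methylation was higher at sites with more mCpGs around them. The 138 CpG-rich mCpGs with 1 other mCpG within 1000 bp had a median methylation of 15.4% (14.3 to 16.7), and 1 of them was above 75%. The median was 16.2% with 2 to 3 others (55 sites), 27.3% with 4 to 7 (88 sites), 38.9% with 8 to 15 (347 sites) and 54.5% (50 to 60) with 16 or more (384 sites). In that last class 28.1% of the sites were above 75%. The classes also differed in density and in read support. The median density was 79 with 1 other mCpG and 61 with 16 or more, and 69.6% against 12.2% of the sites had exactly 2 methylated reads. The part of density and read support in the difference was not tested. Grouped by the density of the neighbors, 567 sites had an mCpG of density up to 34 within 1000 bp, with a median of 38.9%. For 266 sites the sparsest neighbor had a density of 35 to 57, with a median of 41.9%. At the other 179 sites every mCpG within 1000 bp had a density of 58 or more, the median was 16.7% (15.4 to 18.2), the median density was 78 against 61 in each of the other sets, and 101 (56.4%) had exactly 2 methylated reads. These 179 sites, which did not adjoin sparser methylated sequence, were thus mostly low, although 26 of the 179 were above 75%. Their number follows in part from the choice of sites, which left out 1148 mCpGs of CpG-rich density without another mCpG within 1000 bp. Those 1148 did not adjoin sparser methylated sequence within 1000 bp either. Of all 114257 mCpGs with a neighbor, 95706 had a density up to 34. The counts therefore do not show that sites apart from sparser methylated sequence are fewer.

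CpG sites were unevenly spread around the CpG-rich mCpGs. On the side with fewer CpGs the median was 21 CpGs within 500 bp, and on the other side it was 43. Of the 998 sites with unequal sides, 786 (78.8%, 76.1 to 81.2) had more mCpGs within 1000 bp on the sparser side and 192 on the denser side. On the sparser side 38.2% of covered CpGs within 1000 bp were mCpGs, and on the denser side 6.46%. Around mCpGs at density up to 34 the same shares were 58.7% and 34.7%, so the contrast between sides was smaller there. On the sparser side of a CpG-rich mCpG, the share of mCpGs was nearly level, from 43.5% in the first 100 bp to 43.6% in the last 100 bp before 500 bp, and was 24.2% in the last before 1000 bp. On the denser side it was 22.6% in the first 100 bp, 6.43% in the next 100 bp, 2.63% in the next and 1.69% in the fourth, which ends at 400 bp. It was 6.73% in the last 100 bp before 1000 bp. The number of CpGs in 100 bp changed over the same interval, from 4.18 on the sparser side next to the site to 5.60, 7.98, 9.39 and 10.1 in the first 4 steps on the denser side. Density was used to choose the sites and to orient the sides, so the CpG counts are a consequence of the choice. The mCpG shares of the sides are not free of it either. The choice required 1 other mCpG, which is counted in them. Among all covered CpGs, 9.72% were mCpGs at density up to 34 and 0.0458% at CpG-rich density. Whether the contrast between sides goes beyond this was not tested.

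**Figure D3:**
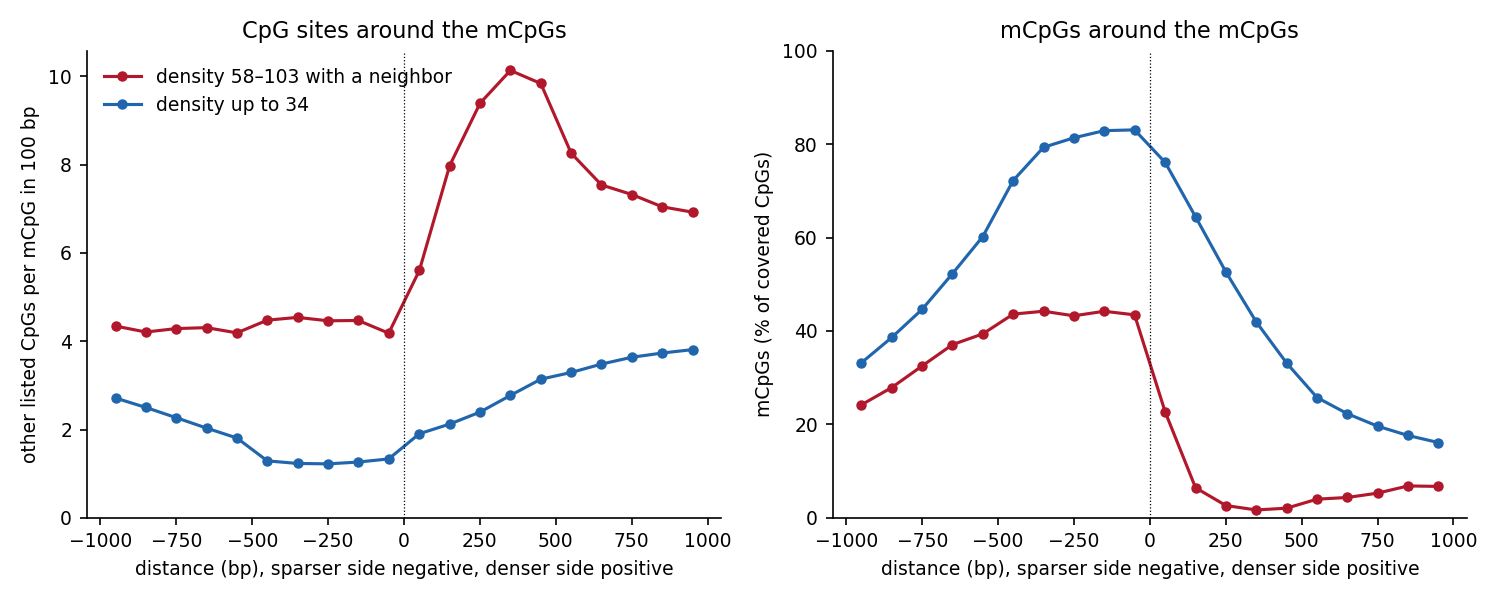
Other listed CpGs per mCpG in 100 bp (left) and mCpGs as a percentage of covered CpGs (right) by distance in bp, with the side that has fewer CpGs within 500 bp drawn as negative. Red, CpG-rich mCpGs. Blue, mCpGs at density up to 34. For the red group the share of mCpGs goes from 43.5% to 22.6% across the site and to 1.69% just before 400 bp on the denser side.

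Taken as the union of all stretches within 500 bp of a CpG-rich mCpG, with these sites themselves left out, 2598 of 16745 covered CpGs were mCpGs, or 15.5% (15.0 to 16.1). The share was 23.9% with a coverage minimum of 20 reads and 3.52% when no neighbor was required. A CpG-rich mCpG had a median of 13 other mCpGs within 1000 bp (25th to 75th percentile 6.75 to 17), against 16 at density up to 34. The median share of covered CpGs within 500 bp that were mCpGs was 26.9% (25 to 29.03), against 72.7% at density up to 34. The CpG-rich mCpGs were chosen for having another mCpG within 1000 bp and those at density up to 34 were not, and the 1148 sites of CpG-rich density without one are left out here, so the numbers of neighbors are a description of the chosen sites only.

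The share of mCpGs at CpG-rich density was also counted by distance from the 210 sites above 75%, without separating the sides. Among the covered CpGs at CpG-rich density, the 210 themselves left out and each other CpG counted once by its distance from the nearest of them, 20 of 25 (80%, 60.9 to 91.1) at 1 to 10 bp and 38 of 48 (79.2%) at 11 to 25 bp were mCpGs. The share was 40.7% at 26 to 50 bp, 30.5% at 51 to 75 bp, 22.5% at 76 to 100 bp, 10.7% beyond that up to 150 bp and 5.19% up to 200 bp. Beyond 300 and up to 500 bp it was 2 of 712, or 0.281% (0.0771 to 1.02). Single reads span the shortest of these distances, so neighbors there share molecules. Each of the 210 was also chosen for having another mCpG within 1000 bp, which can raise these shares.

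Sites that lay next to each other had similar percentages. In 423 pairs of adjacent CpG-rich mCpGs 2 to 75 bp apart the methylation percentages had a Pearson's r of 0.63 and a median absolute difference of 11.8 points. In 64 pairs 76 to 500 bp apart r was 0.13 and the median difference 24.9 points. At density up to 34, r was 0.39 and 0.18 over the same distances. These are descriptions across sites of 1 pool, and pairs within 75 bp share reads. The nearest covered CpG on each side was also examined, passing over CpGs between that were not covered. Where both lay within 75 bp (738 CpG-rich mCpGs), both were mCpGs at 232 (31.4%), 1 was at 239 (32.4%) and none at 267 (36.2%). The same shares were 76.1%, 17.3% and 6.68% at density up to 34. Among the 150 of these CpG-rich mCpGs above 75%, the nearest covered CpGs on both sides were non-methylated at 7, and at 4 of them this pair had no methylated read at all.

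Although chosen for many CpGs within 500 bp, the CpG-rich mCpGs had few CpGs very close by. They had a mean of 4.18 other CpGs within 50 bp. Covered CpGs at CpG-rich density without a methylated read and without an mCpG within 1000 bp, weighted to the same densities, had 6.47. The distance to the nearest CpG had a median of 13 bp, against 6 bp. Sites above 75% had 2.76 other CpGs within 50 bp and a nearest CpG at 17 bp, against 6.18 and 6 bp for unmethylated sites weighted to their densities. Sites of up to 25% had 5.34 and 10 bp, against 6.80 and 6 bp. From about 200 bp outward the order was turned around, with 7.78 CpGs in the last 50 bp before 500 bp around sites above 75% and 6.13 around the unmethylated sites weighted to their densities. Because density fixes the number of CpGs within 500 bp, a deficit next to the site is made up farther out. These counts add both sides of a site. By side, all CpG-rich mCpGs together had 4.18 CpGs in the first 100 bp on the sparser side. That side held 4.34 in the last 100 bp before 1000 bp. The denser side rose from 5.60 in the first 100 bp to 10.1 in the 100 bp that end at 400 bp. For all CpG-rich mCpGs, CpGs were thus few along the whole sparser side, not only close to the site. Sides were not separated for the sites above 75%. Whether these lay in short CpG-poor pockets or at an edge of denser sequence was not tested. At most 2 other CpGs within 50 bp were found at 40.5% of the sites above 75%, at 15.98% of those of up to 25% and at 6.07% of the unmethylated CpGs weighted to the densities of all CpG-rich mCpGs.

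**Figure D4:**
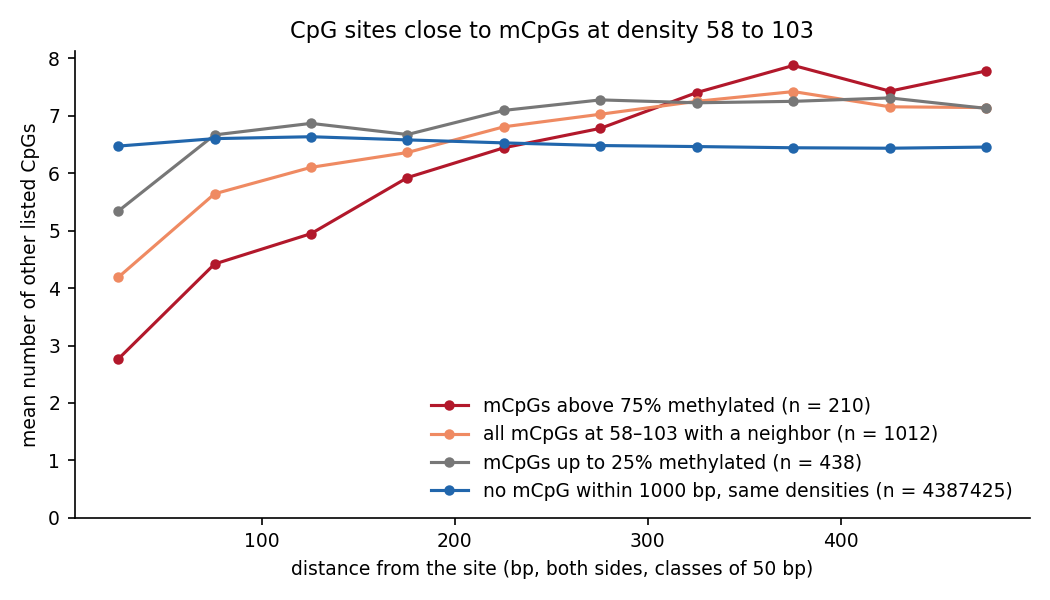
Mean number of other listed CpGs on both sides (vertical axis) by distance from the site in classes of 50 bp. Red, 210 CpG-rich mCpGs above 75% methylated. Orange, all 1012. Gray, 438 of up to 25%. Blue, 4387425 covered CpGs of CpG-rich density without a methylated read and without an mCpG within 1000 bp, weighted to the densities of the 1012. Within 50 bp the means are 2.76, 4.18, 5.34 and 6.47, and beyond 300 bp the red line lies above the blue.

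Distances from CpG-rich mCpGs to other mCpGs were often multiples of 3 bp. Of 2191 such distances of 3 to 100 bp, 894 (40.8%) were. For the distances to covered CpGs that were not mCpGs the share was 36.0%. Covered CpGs at CpG-rich density without a methylated read and without an mCpG within 1000 bp were set beside them. From these, 34.1% of distances to all CpGs were multiples of 3. The like share to all CpGs was 37.5% from CpG-rich mCpGs (3720 of 9913) and 36.2% from mCpGs at density up to 34. From mCpGs at density up to 34 to other mCpGs the share was 36.4%. Codons give coding sequence a period of 3 bp. Distances share sites and are not independent, and whether the CpG-rich mCpGs lie in coding exons was not analysed here.

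In sequence 500 bp around the CpG-rich mCpGs, methylation was also examined at CpGs that the definition could not use because they had 1 to 9 reads, at more than 75 bp from every mCpG. At these 14403 sites, 1721 of 75276 reads were methylated, or 2.29% (2.18 to 2.40). Near mCpGs at density up to 34 the value was 8.12% (8.01 to 8.23), and at CpG-rich density without an mCpG within 1000 bp it was 0.108% (0.107 to 0.110). Among the sites near CpG-rich mCpGs that were themselves at CpG-rich density, it was 0.718% (449 of 62529 reads, 0.655 to 0.787). It was 0.813% (0.713 to 0.927) where no mCpG at density up to 34 lay within 1000 bp. Low-coverage CpGs near CpG-rich mCpGs thus had more methylated reads than those in the same range of density elsewhere, in reads that the choice of sites did not use. The value depended on distance and was 0.823% (0.754 to 0.897) at more than 150 bp from every mCpG. For scale, sequences whose names start with chrM had 53 methylated of 28420 reads (0.186%).

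Clusters of mCpGs were called by linking mCpGs up to 500 bp apart unless 3 consecutive covered CpGs between them were non-methylated. A cluster needed 4 or more covered CpGs, an mCpG share above 80% and average methylation above 40%. Of the 1012 CpG-rich mCpGs, 509 (50.3%, 47.2 to 53.4) lay inside 1 of 5451 clusters, against 83.4% of mCpGs at density up to 34. The first share was 9.99% with a coverage minimum of 5 reads and 76.1% with density counted within 1000 bp. Another 252 lay within 1000 bp of a cluster and 251 farther away. The sites inside clusters had a median methylation of 63.6% and the others 18.2%, and 35.8% and 5.57% of them were above 75%. Inside clusters the CpG-rich mCpGs lay at the edges. Of the 509, 447 (87.8%) were within 100 bp of a cluster end, against 22.2% at density up to 34, and 214 (42.04%) were themselves the first or last mCpG, against 9.53%. Clusters had few CpGs, and density counts 500 bp on either side. A cluster site therefore reaches CpG-rich density more easily near an end, where the count takes in sequence outside the cluster. The position at the edges thus follows at least in part from the choice, and whether it goes beyond that was not tested. The 209 clusters with a CpG-rich mCpG had a median of 2.67 CpGs per 100 bp, against 1.71 in the 5242 others. Holding a site chosen for its density set these clusters apart, so their higher CpG count follows at least in part from the choice. Their median methylation was 67.03%, against 64.3% in the others. In 17 clusters, with a median length of 279 bp, at least 50% of the mCpGs were CpG-rich.

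Chained with gaps of up to 1000 bp, the 1012 sites formed 486 regions. Of these, 234 held 1 site, 153 held 2, 73 held 3 to 5 and 26 held 6 or more, with 207 sites in the last group. Every site was above 75% in 37 regions, 36 of which held 1 or 2 sites, and no site was above 25% in 212 regions. The regions lay on 82 scaffolds, and no site was within 500 bp of the first or last CpG of its scaffold. SCAFFOLD9 had the most with 76 sites in 29 regions (0.0543% of its covered CpGs at CpG-rich density, 0.0434 to 0.0680), a median methylation of 50.7% and 20 sites above 75%. SCAFFOLD1 had 73 sites in 36 regions (0.0247%, 0.0196 to 0.0310), with a median of 20.7%. SCAFFOLD16 had 66 in 28 regions (0.0685%, 0.0538 to 0.0871), with a median of 31.3%.

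The 10 regions with the most CpG-rich mCpGs show how methylation was arranged from site to site. The region with the most had 14 and lay on SCAFFOLD94 (positions 389198 to 389619, as in the deposited table). Its first 11 mCpGs, all in a row, had between 72.7% (8 of 11 reads) and 100% methylation, 4 of them at 100%. The next CpG, 59 bp on, had 0 of 17 methylated reads. Beyond it the pattern was broken, with 5 of 22 methylated reads at position 389506, 21 of 25 at 389553, 0 of 24 at the CpG 6 bp farther and 4 of 24 at 389619. In the 500 bp after the last mCpG, none of 15 covered CpGs was an mCpG and 14 had no methylated read. In the 500 bp before the first, none of 38 listed CpGs was covered, so the other end of this run was not seen. At this end adjacent CpGs thus differed sharply, from 84% to 0% within 6 bp at 25 and 24 reads.

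The region on SCAFFOLD6 (positions 2662147 to 2662387) was the most evenly methylated of the 10. All 8 of its covered CpGs were CpG-rich mCpGs of 63.2% to 100%, with 121 of 141 reads methylated (85.8%, 79.1 to 90.6). The 14 covered CpGs in the 500 bp on either side held no mCpG. Only 11 of 35 listed CpGs before the region and 3 of 45 after it were covered, so most of its surroundings were not measured. On SCAFFOLD16 (positions 3624798 to 3626124), 8 of 12 CpG-rich mCpGs were above 75%, among them 3 sites with 21 of 21, 22 of 22 and 10 of 10 methylated reads. None of the 34 covered CpGs in the 500 bp on either side was an mCpG. Only 25 of the 90 listed CpGs inside that region were covered, so most of it was not measured.

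Other regions joined methylated sequence on 1 side. On SCAFFOLD9 (positions 3573386 to 3573612), the first 8 of 10 CpG-rich mCpGs had 70.0% to 91.7% methylation and the last 2 had 15.4% and 20.0%. Of the covered CpGs in the 500 bp before it, 6 of 8 were mCpGs, and in the 500 bp after it 0 of 16, where 47 CpGs were listed against 20 before. The second region on SCAFFOLD16 (positions 1211716 to 1211854) had the opposite orientation. None of 29 covered CpGs before it had a methylated read, with 46 CpGs listed in 500 bp. Inside it 8 of 10 covered CpGs were mCpGs of 15.4% to 97.6%, and after it 4 of 12 covered CpGs were mCpGs, with 15 listed.

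On SCAFFOLD35 (positions 1553553 to 1553853) all 14 covered CpGs of the region were mCpGs, 11 of them CpG-rich, with 279 of 522 reads methylated (53.4%, 49.2 to 57.7). Here 15 of 16 covered CpGs before and 6 of 15 after it were mCpGs too, so it lay within a longer methylated stretch. On SCAFFOLD7 (positions 2739672 to 2740809) 9 CpG-rich mCpGs of 36.8% to 100% were spread over 1138 bp, with 4 mCpGs among 16 covered CpGs before and 0 of 12 after. The region on SCAFFOLD17 (positions 1170078 to 1170570) had 10, and reached a density of 90, where 8 of 10 reads were methylated. Its methylation ranged from 11.1% (2 of 18 reads) to 100% (12 of 12 reads).

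In the remaining pair methylation was mostly low. On SCAFFOLD51 (positions 787408 to 787777) the 13 CpG-rich mCpGs had a median of 33.3%, 1 was above 75% (14 of 15 reads), and 8 of 22 covered CpGs among them had no methylated read. On SCAFFOLD1 (positions 8034392 to 8035220) the 12 sites formed a pair of groups. The first 4 had 27.3% to 81.0% methylation with 6 to 17 methylated reads each. The other 8, at least 345 bp farther, had 14.3% to 30% with 2 to 4 methylated reads each, so this region's rank rests partly on sites near the lower limit of the definition.

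**Figure D5:**
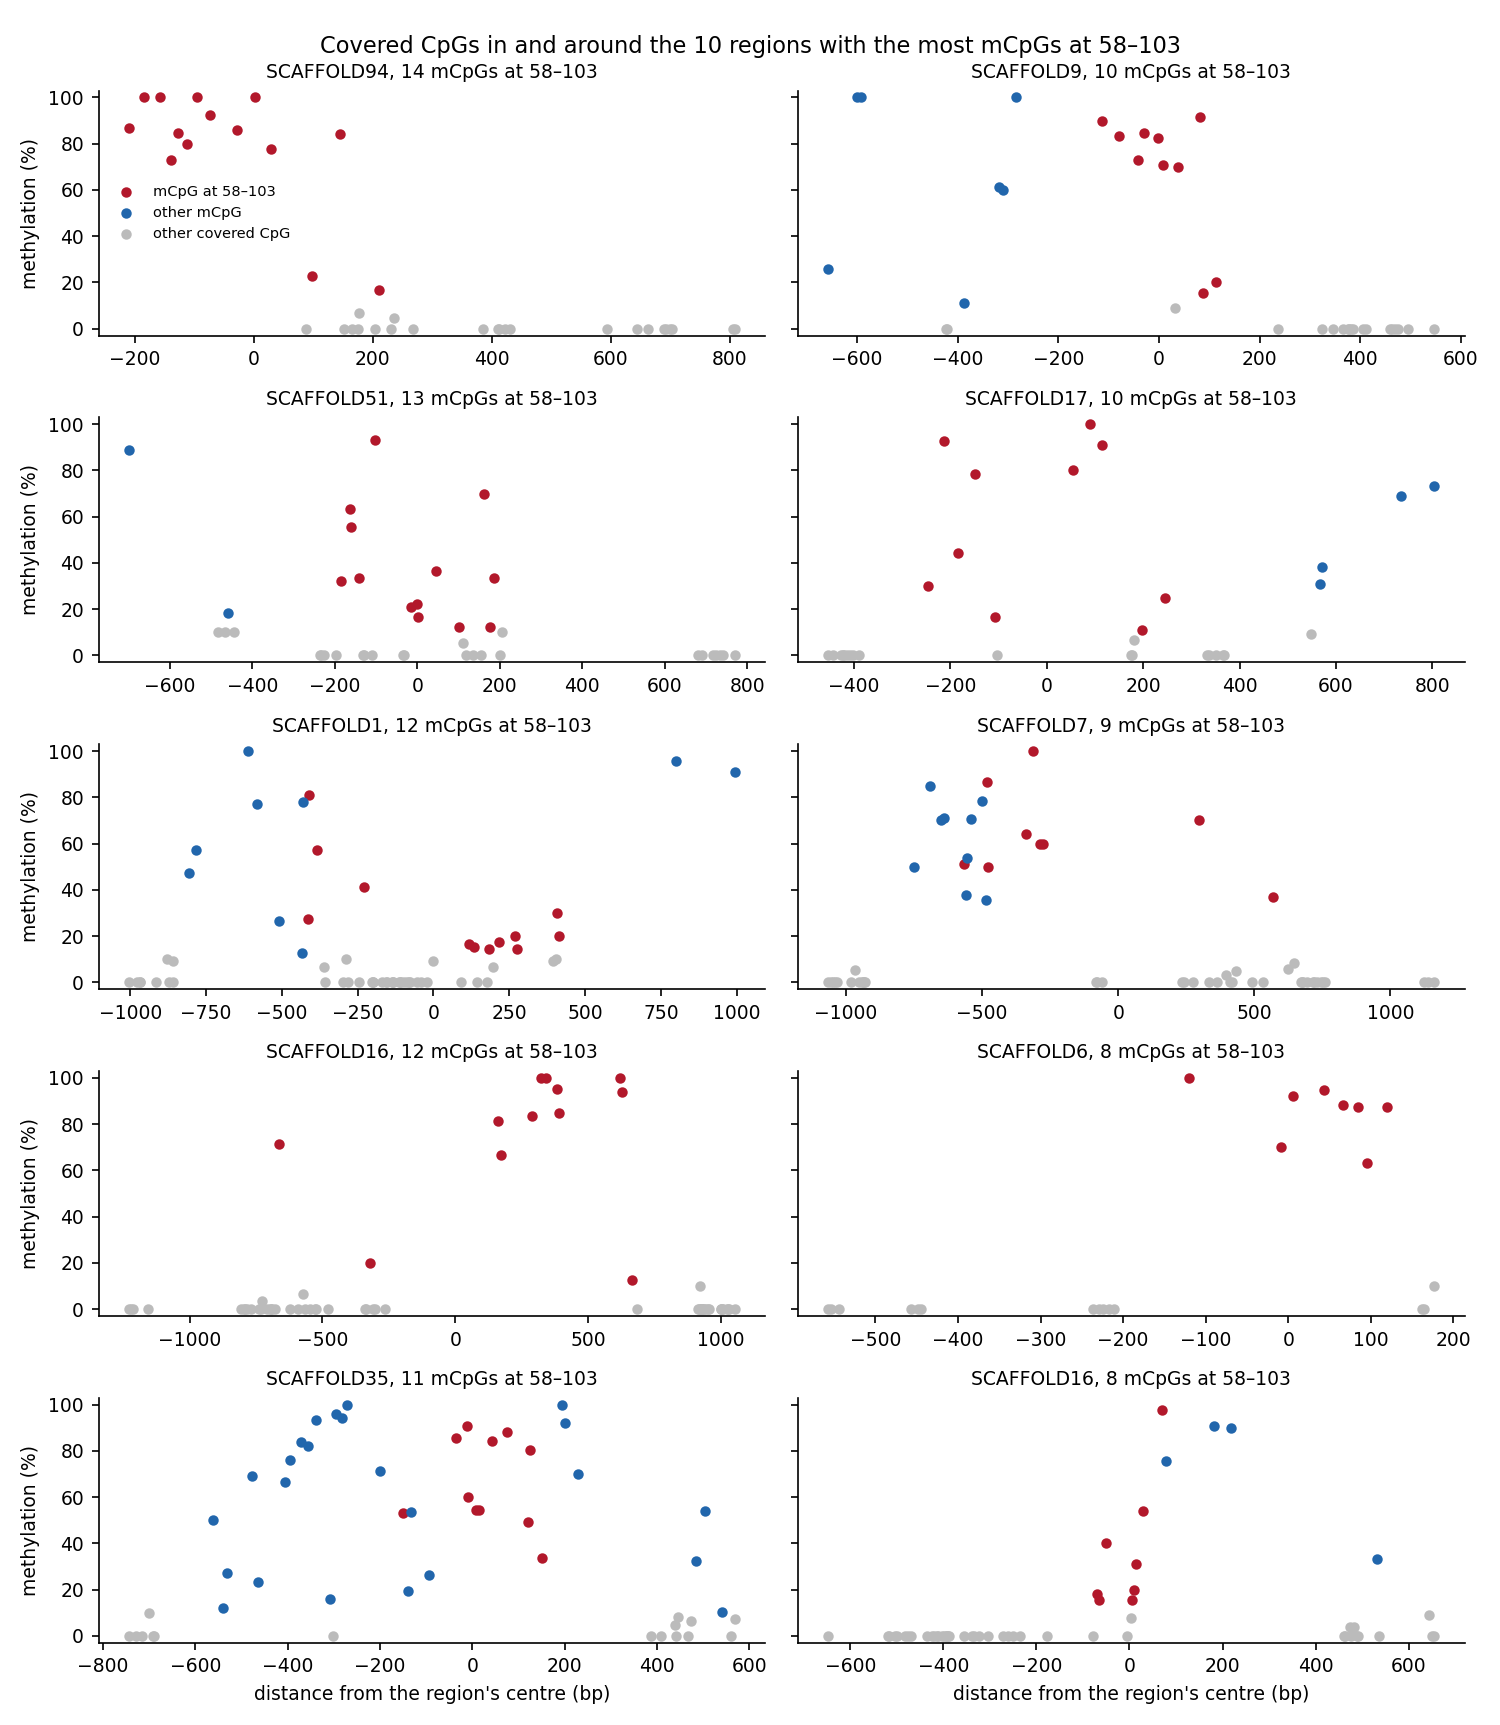
Methylation percentage (vertical axis) of each covered CpG by distance in bp from the region's centre, for the 10 regions with the most CpG-rich mCpGs, with the surrounding sequence on either side. Red, CpG-rich mCpGs. Blue, other mCpGs. Gray, covered CpGs that are not mCpGs. On SCAFFOLD9 and on the SCAFFOLD16 region with 8 sites covered mCpGs continue on 1 side only, and on SCAFFOLD6 none was seen on either side, where few CpGs were covered.

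Among sequences whose scaffold positions are printed with the study, 10 mCpG clusters, 5 gene regions studied by cloning and 28 candidate non-CpG sites, CpG-rich mCpGs were found at 1 cluster and 1 gene region. In the cluster mCpGCL3785, assigned to the gene NV16191 on SCAFFOLD35, the last mCpG at position 1407000 had 6 of 11 methylated reads (54.5%) and a density of 58. The next CpG-rich mCpG, 131 bp beyond the cluster's end, had 4 of 14 (28.6%) and a density of 64. Neither site lay inside a cluster as called here, so both count above among the sites outside clusters. Near the cloned region of Nasvi2EG002725 on SCAFFOLD3, sites 91 and 85 bp outside it had 5 of 45 (11.1%) and 21 of 49 (42.9%) methylated reads, at positions 3229711 and 3229717. These neighbors 6 bp apart were covered by similar numbers of reads and differed by 31.7 points.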

How the data were processed

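The authors trimmed the WGBS-seq reads of both lanes to 75 bp and aligned them with BWA (version not given in the sources used here), allowing up to 4 mismatches, to a bisulfite-converted form of each strand of the reference scaffolds. They kept unique alignments without indels. The submitters' processing notes also name CASAVA 1.7. The deposited counts of C (methylated) and T (non-methylated) reads per CpG are not normalized and sum lanes and strands of 1 pool. The release of the scaffolds and any removal of duplicate reads are not given in the sources used here, so positions are those of the deposited table. Repeated sequence was not identified here.

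Counts were used as deposited. Covered CpGs had 10 or more reads, and mCpGs more than 10% methylation. The sites and lists were chosen with earlier results of these data known. Median depth was 17 reads at the CpG-rich mCpGs, where 1 read is worth several percentage points. Named regions were the 10 with the most CpG-rich mCpGs (ties by scaffold number and start), the 3 scaffolds with the most, and sites within 1000 bp of clusters, candidate non-CpG sites and cloned genes whose positions are printed with the study. The density, site, cluster and interval calculations were checked on simulated data. Alternatives were other coverage and methylation minima, a binomial test against the lambda rate of unconverted Cs, other windows, other limits on neighbors, a shorter chaining gap, depth weighting, and leaving out very deep sites, scaffold ends or the scaffold with the most sites. Genome sequence, gene models, CpG islands and RNA data were not analysed here. Analyses used matplotlib 3.10.9, SciPy 1.17.1, pandas 2.3.3 and NumPy 2.4.6 under Python 3.11.15.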

Additional observations from a re-analysis of the deposited data

How the results depend on the processing

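No paired analysis was possible because the series holds 1 group, a single pool whose lanes were summed. The number of CpG-rich mCpGs was 8092 with a minimum of 5 reads, where 1 methylated read is enough, and 355 with a minimum of 20 reads. It was 617 above 20% methylation, 2218 with density counted within 1000 bp (limits doubled) and 2160 with no neighbor required. The difference in the share above 75% against density up to 34 stayed negative throughout. It was -45.1 points with a minimum of 5 reads, -25.0 with 20 reads, -19.7 above 20% methylation, -36.6 with density within 250 bp (limits halved), -11.3 within 1000 bp, and -33.3 with the sparse sites weighted to the same depths. The share inside clusters was 9.99% with 5 reads, 45.9% with 20 reads, 66.5% above 20% methylation, 39.0% with density within 250 bp, 76.1% within 1000 bp and 46.3% with a chain gap of 200 bp. The share of mCpGs among covered CpGs within 500 bp was 23.9% with 20 reads, 17.7% with density within 250 bp, 14.5% within 1000 bp and 3.52% with no neighbor required. The methylation of CpGs with 1 to 9 reads was 0.823% at more than 150 bp from every mCpG, 2.69% with density within 250 bp and 2.98% within 1000 bp. Except where the construction of the alternative gives it, the cause of these shifts was not tested. The other alternatives fixed at the start left these 5 values within their intervals or, for the number of sites, within 1.5 times.

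Alternatives chosen after seeing the data were a minimum of 20 reads, methylation above 20%, leaving out SCAFFOLD9, and leaving out sites with 2 methylated reads. The mean number of other CpGs within 50 bp was 3.20, 3.30, 4.20 and 3.43 in these, and the share with more mCpGs on the sparser side was 81.9%, 85.8%, 77.9% and 83.3%. With no replicate and a median of 17 reads, a single site's percentage is coarse.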
